A study of Meriones unguiculatus with 18 samples.

Results

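The genes described are 6 genes of collagen and elastic matrix in the liver of male Mongolian gerbils (Meriones unguiculatus): Col1a1, Col5a2, Serpinh1, Eln, Lum and Fndc1. Each was found by its gene name in a deposited table of 13172 assembled transcripts (unigenes), of which 3767 carry a gene name, and each name had 1 row. Normal diet (ND) gerbils got ordinary feed, and those on high-fat feed (HFD) got it at 80.5%, with bile salt No. 3 (0.5%), cholesterol (2%), the ingredient written as lard bile (7%) and egg yolk powder (10%). Each diet had 3 libraries at 4, 8 and 16 weeks. No age, strain name or genetic alteration is stated, and the labels name both continuous light and a light/dark cycle. The values used are those of 4 and 16 weeks, 12 libraries in 4 groups, because the values of 8 weeks do not follow the gene names. The design text speaks of 18 gerbils and the treatment protocol of 36, and pooling is not stated. The p-values measure the spread between these libraries, which may be smaller than that between animals.

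Fibrillar collagens are the load-bearing rods of connective tissue. Col1a1 encodes a chain of type I collagen, the main collagen of scar tissue, and Col5a2 a chain of type V collagen, which is built into the same fibrils and limits their width. Serpinh1 (HSP47) is the chaperone that binds newly made procollagen in the endoplasmic reticulum. Lum encodes lumican, a small leucine-rich proteoglycan that binds collagen fibrils and spaces them. Eln encodes tropoelastin, the monomer of elastic fibres, and Fndc1 a little-studied protein with fibronectin type III domains. A healthy liver holds little such matrix outside its portal tracts. In fibrosis hepatic stellate cells and portal fibroblasts become myofibroblasts and lay it down. In whole liver RNA a change in the number of cells of a type and a change in the RNA per cell cannot be told apart.

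Values are the authors' normalized expression levels. All libraries hold nearly the same set of sorted values, with column sums of 157561 to 158005, as quantile normalization gives, so a value stands for a rank in its library and depth is unknown. The median unigene of a library had a value of 1.19 to 1.21, and the lowest value of a library, shared by many unigenes and called not detected here, was 0 to 0.141. Across unigenes, which are not independent replicates, libraries of 1 group had a Pearson's r of 0.77 to 0.86, whereas 8-week libraries had 0.00 to 0.03 with those of 4 and 16 weeks. At the lowest value stood 3910 to 5273 unigenes in ND and 2053 to 3012 in HFD libraries. Within HFD the libraries numbered 1 stood apart: 437 unigenes were detected in all 4 other HFD libraries and in neither of these, compared with 66 and 100 for the libraries numbered 2 and 3. Since detection also differed between the diets, the diet and the kind of library cannot be told apart in any comparison of HFD with ND.

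All 6 genes were higher on HFD than on ND at 16 weeks, in every library, and Col1a1, Col5a2, Serpinh1 and Eln already at 4 weeks. Lum and Fndc1 overlapped between the diets at 4 weeks and were high on HFD at 16 weeks. Within ND none of the 6 was called between 4 and 16 weeks by limma. 

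**Figure D1:**
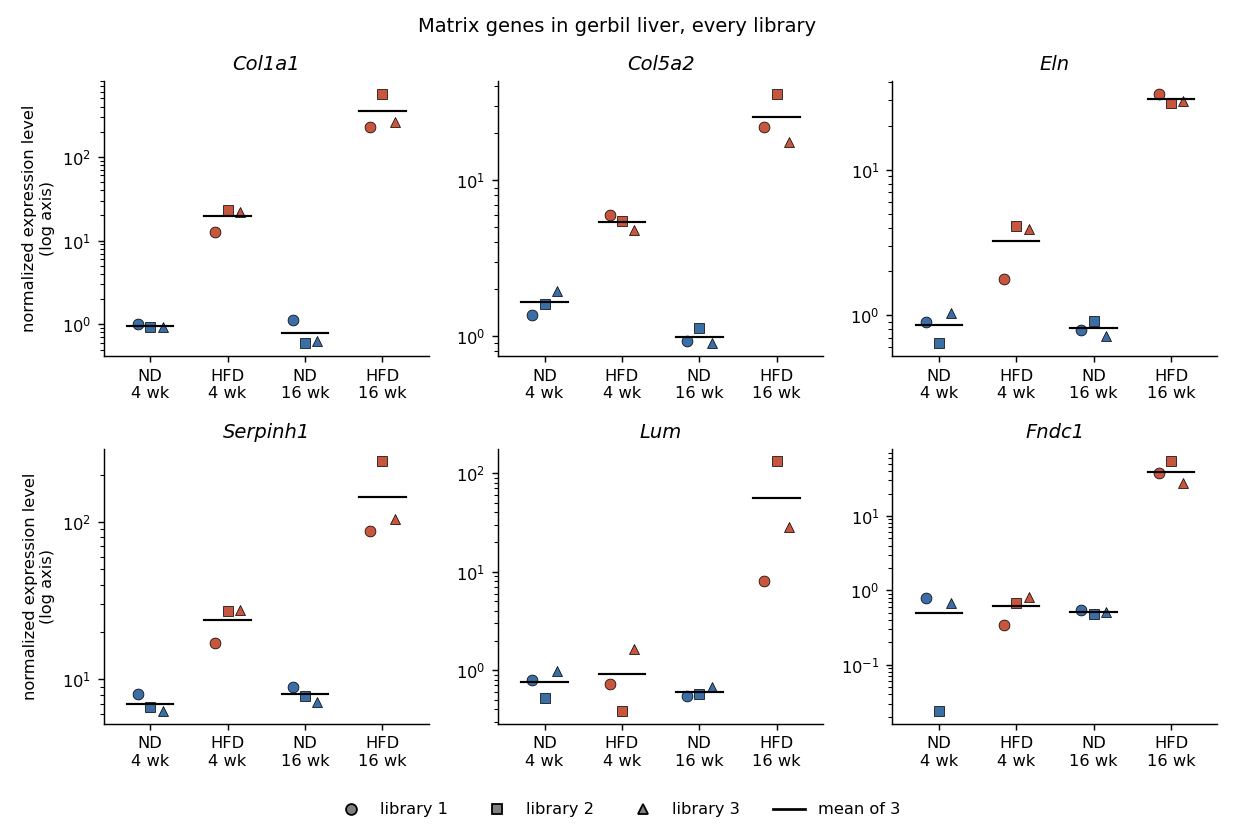
Normalized expression level (log axis, a separate scale for each gene) of the 6 matrix genes in each of the 12 libraries; blue marks ND, red HFD, the marker shape the library number and the line the mean of 3. The 3 HFD libraries of 16 weeks lie above all others for every gene, and for Lum and Fndc1 the HFD libraries of 4 weeks, at 0.383 to 1.65 and 0.343 to 0.823, overlap the ND libraries of that time.

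Col1a1 (TRINITY_DN32772_c0_g1) had values of 1.02, 0.941 and 0.921 in the ND libraries of 4 weeks and 1.14, 0.591 and 0.626 in those of 16 weeks. In HFD it was 12.8, 23.4 and 22.2 at 4 weeks and 226, 572 and 263 at 16 weeks. The groups of the 2 diets did not overlap at either time: the lowest HFD library was 12.6 times the highest ND library at 4 weeks and 199 times at 16 weeks. From ND to HFD, Col1a1 went from 0.960 ± 0.0511 to 19.4 ± 5.80 at 4 weeks and from 0.784 ± 0.305 to 354 ± 190 at 16 weeks (mean ± SD, n = 3 each). The fold changes in log2(value + 1), a scale on which low unigenes appear to change less than they did, were 3.34 (SE 0.32, limma Benjamini-Hochberg adjusted p = 0.000107) and 7.52 (SE 0.32, limma adjusted p = 1.47e-07). In rank, Col1a1 was 7118th to 7435th from the top in the ND libraries of 4 weeks, 565th to 948th in HFD at 4 weeks and 33rd to 92nd in HFD at 16 weeks. Its rise was the 8th largest of 9487 unigenes tested at 4 weeks and the 2nd largest at 16 weeks.

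The other collagen chain, Col5a2 (TRINITY_DN34532_c2_g3), was 1.37, 1.62 and 1.96 in ND and 6.02, 5.45 and 4.80 in HFD at 4 weeks. At 16 weeks it was 0.935, 1.14 and 0.901 in ND and 22.2, 36.0 and 17.7 in HFD. The diets did not overlap at either time, and the lowest HFD value was 2.45 times the highest ND value at 4 weeks and 15.6 times at 16 weeks. Col5a2 rose by log2 1.28 at 4 weeks (SE 0.24, limma adjusted p = 0.00502) and 3.67 at 16 weeks (SE 0.24, limma adjusted p = 1.32e-06). Within ND every library of 16 weeks was below every library of 4 weeks, which held for 12.1% of the tested unigenes, and the difference did not pass (log2 -0.41, SE 0.24, limma adjusted p = 0.441).

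Serpinh1 (TRINITY_DN28407_c0_g2), the collagen chaperone, was 8.02, 6.64 and 6.26 in ND and 17.0, 27.2 and 27.7 in HFD at 4 weeks. At 16 weeks its values were 8.99, 7.85 and 7.19 in ND and 87.5, 243 and 104 in HFD. No HFD library overlapped an ND library, and Serpinh1 was the only one of the 6 genes above the median unigene in every library. Its rise was log2 1.62 at 4 weeks (SE 0.32, limma adjusted p = 0.00695) and 3.87 at 16 weeks (SE 0.32, limma adjusted p = 7.24e-06). In the HFD libraries of 16 weeks it followed Col1a1: library 2 was highest for both, at 2.34 times the next library for Serpinh1 and 2.18 times for Col1a1, and library 1 was lowest for both.

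Elastin (Eln, TRINITY_DN30294_c0_g1) was 0.904, 0.640 and 1.04 in ND and 1.79, 4.10 and 3.90 in HFD at 4 weeks. At 16 weeks it was 0.789, 0.918 and 0.725 in ND and 33.4, 28.6 and 29.8 in HFD. The diets did not overlap at either time, although at 4 weeks HFD library 1, at 1.79, was 1.72 times the highest ND library. Eln rose by log2 1.15 at 4 weeks (SE 0.24, limma adjusted p = 0.00934) and 4.12 at 16 weeks (SE 0.24, limma adjusted p = 6.3e-07). With the 6 libraries of 4 weeks fitted alone, the 4-week call was lost (limma adjusted p = 0.0864). At 16 weeks Eln was the most even of the 6 genes, with a coefficient of variation between HFD libraries of 8.27%, compared with 53.7% for Col1a1 and 118% for Lum. Library 2, the highest of the HFD libraries of 16 weeks for the other 5 genes, was the lowest for Eln.

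Lumican (Lum, TRINITY_DN36585_c0_g1) was not called at 4 weeks, with 0.796, 0.518 and 0.991 in ND and 0.724, 0.383 and 1.65 in HFD (log2 0.07, SE 0.71, 95% interval -1.48 to 1.62, limma adjusted p = 0.965). At 16 weeks it was 0.543, 0.579 and 0.674 in ND and 8.03, 131 and 28.7 in HFD. The diets did not overlap at 16 weeks, but the HFD libraries were far apart, with library 2 at 16.4 times library 1. Lum rose by log2 4.36 (SE 0.71, limma adjusted p = 0.000696). Without HFD library 2 of 16 weeks the fold change was 3.36 (limma adjusted p = 0.000663), and without library 1 it was 5.29 (limma adjusted p = 7.75e-05), so the fold depends on which library is counted.

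Fndc1 (TRINITY_DN35754_c1_g1) was at the lowest value, 0.0236, in ND library 2 of 4 weeks and detected in the other 11 libraries. Its ND values of 4 weeks were otherwise 0.778 and 0.676, and in HFD it was 0.343, 0.684 and 0.823. At 16 weeks it was 0.541, 0.475 and 0.519 in ND and 37.2, 54.1 and 27.3 in HFD. Groups overlapped at 4 weeks (log2 0.14, SE 0.30, 95% interval -0.51 to 0.80, limma adjusted p = 0.816) and not at 16 weeks, where the lowest HFD library was 50.5 times the highest ND library. Fndc1 rose by log2 4.69 at 16 weeks (SE 0.30, limma adjusted p = 1.15e-06), the 14th largest rise of 9487 unigenes, and went from 8677th to 8899th place from the top in ND to 280th to 492nd in HFD.

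**Figure D2:**
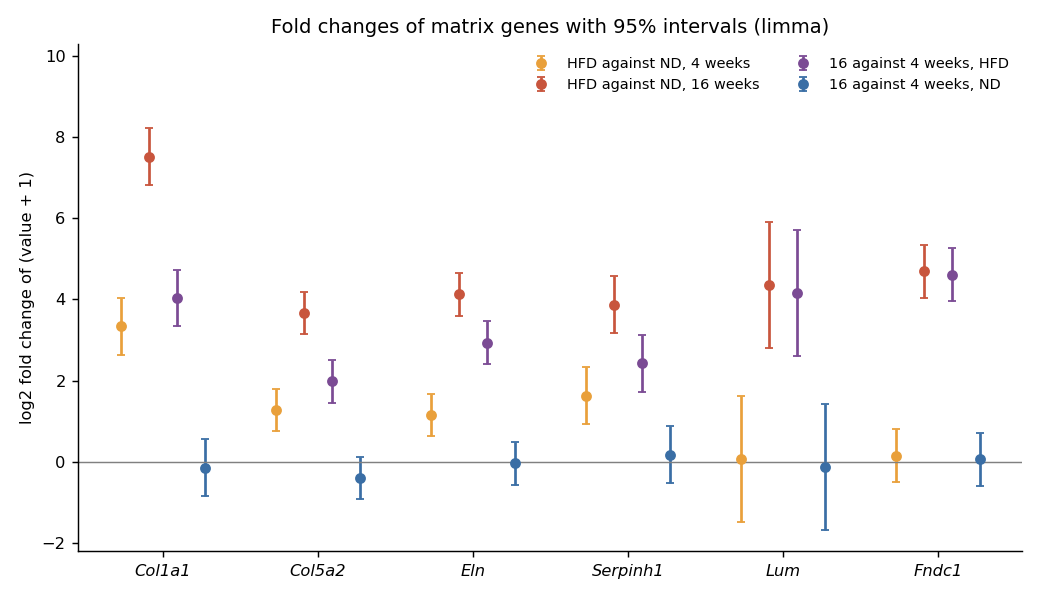
Log2 fold change of (value + 1) with 95% intervals from limma for HFD against ND at 4 and at 16 weeks and for 16 against 4 weeks within each diet. Intervals for 16 weeks and for time within HFD lie above 0 for all 6 genes, those for 4 weeks lie above 0 for Col1a1, Col5a2, Eln and Serpinh1, and those for time within ND include 0 for all 6.

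By count, 4 of the 6 genes rose at 4 weeks and 0 fell by limma, where 12.1% of the 9487 tested unigenes were called, 4.89% higher and 7.22% lower, and every HFD library was above every ND library for these 4 genes, as for 11.9% of the unigenes. At 16 weeks 6 of 6 rose, where 35.2% of unigenes were called, 15.3% higher and 19.9% lower, and every HFD library was above every ND library for 6 of 6, as for 20.4%. Lum and Fndc1, with means of 0.493 to 0.919 in the other groups, passed the limit of the fit only through HFD at 16 weeks. That limit is a mean of at least 1 over the 12 libraries. Counts, medians and ranks of the 6 genes in comparisons with HFD at 16 weeks, here and below, are therefore partly set by it. Rescaling by median ratios moved the split over all unigenes from 464 higher and 685 lower to 600 and 504 at 4 weeks, and from 1451 and 1889 to 1761 and 1737 at 16 weeks. The median log2 fold change of the 6 genes was 1.21 at 4 weeks and 4.24 at 16 weeks, and that of all tested unigenes was -0.03 and -0.12. Rescaling by median ratios moved the median of all unigenes to 0.09 and 0.01, and the folds of the 6 genes kept their direction and calls in these comparisons. All these calls of the 6 genes were also made without the HFD libraries numbered 1. In an exact two-sided permutation test of diet within each time over the 12 libraries, p was 0.005 for Col1a1, Col5a2, Eln and Serpinh1, the smallest that 400 arrangements can give. It was 0.045 for Lum and 0.03 for Fndc1 (6 tests, not adjusted). Without ND library 2 of 4 weeks the exact p was 0.06 for both Lum and Fndc1, and for Lum it was 0.085 without HFD library 3 of 4 weeks and 0.095 without any 1 of the ND libraries of 16 weeks. The arrangements treat the libraries of both times as independent, whereas same-numbered HFD libraries of the 2 times deviated together (r of 0.12 to 0.40). With same-numbered libraries kept together, as at 1 time alone, 3 against 3 cannot give an exact p below 0.1.

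The change from 4 to 16 weeks was compared within each diet. Within HFD all 6 genes rose, and each had every library of 16 weeks above every library of 4 weeks. Of all unigenes 17.0% were called, 9.19% higher and 7.78% lower, and 15.7% had every library of 16 weeks above those of 4 weeks. The rise was log2 4.04 for Col1a1 (SE 0.32), 1.98 for Col5a2 (SE 0.24, limma adjusted p = 0.000268), 2.43 for Serpinh1 (SE 0.32) and 2.94 for Eln (SE 0.24). It was 4.15 for Lum (SE 0.71) and 4.61 for Fndc1 (SE 0.30, limma adjusted p = 9.46e-06). The order among the larger rises depended on the pseudocount, since with a pseudocount of 5 they were 3.78 for Col1a1, 2.94 for Fndc1 and 2.73 for Lum. That of Lum was 5.08 without HFD library 1 of 16 weeks and 3.15 without library 2. Same-numbered HFD libraries of the 2 times deviated together. In a fit of the 6 HFD libraries with the number as a block, the 6 genes had a limma adjusted p of 0.00562 to 0.0369. The share of all unigenes called in that fit is not given here. Within ND 0 of 6 genes were called by limma, and 0 of 6 had an unadjusted p under 0.05, where 0.379% of unigenes were called, 0.211% higher and 0.169% lower. No gene of the 6 had all its ND libraries of 16 weeks above those of 4 weeks, as 8.21% of unigenes had. The ND fold changes were -0.41 to 0.18, with 95% intervals that reached from -1.69 to 1.41 for Lum and from -0.56 to 0.49 for Eln.

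The diet effect at 16 weeks minus that at 4 weeks was above 0 for all 6 genes by its own test, where 10.1% of unigenes were called, 5.50% above and 4.61% below 0. It was log2 4.18 for Col1a1 (SE 0.45, limma adjusted p = 0.000604), 2.39 for Col5a2 (SE 0.34), 2.25 for Serpinh1 (SE 0.45, limma adjusted p = 0.0106) and 2.97 for Eln (SE 0.34). For Lum it was 4.29 (95% interval 2.10 to 6.48, limma adjusted p = 0.0201) and for Fndc1 4.55 (SE 0.42, limma adjusted p = 0.000333). With a pseudocount of 5 these were 3.83 for Col1a1, 2.94 for Fndc1 and 2.77 for Lum, the last no longer called (limma adjusted p = 0.0612). Without HFD library 1 of 16 weeks that of Lum was 5.22, and without library 2 it was 3.28. The 2 comparisons share no libraries, but same-numbered HFD libraries of the 2 times deviated together (r of 0.12 to 0.40). The fit that gave these p-values has no term for the library number. In each gene the order of mean levels was ND at either time lowest, then HFD at 4 weeks, then HFD at 16 weeks. ND and HFD at 4 weeks did not differ beyond their spread for Lum and Fndc1, and the ND groups of 4 and 16 weeks did not for any of the 6 by limma.

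The fold change of Col1a1 was larger than that of each of the other 5 at both times, by log2 1.72 to 3.26 at 4 weeks and 2.83 to 3.86 at 16 weeks, and in all 10 comparisons the log2 differences between the genes in HFD libraries did not overlap those in ND libraries, also with pseudocounts of 0.1 and 5. At 4 weeks the folds of Col5a2, Eln and Serpinh1 were larger than those of Lum by log2 1.08 to 1.55 and than those of Fndc1 by 1.01 to 1.48, again with no overlap. With a pseudocount of 0.1 the groups overlapped for the 3 differences from Fndc1. By 16 weeks the fold of Fndc1 was the larger one, by log2 1.03 over Col5a2 and 0.57 over Eln, with no overlap, although with a pseudocount of 5 the groups overlapped for Eln (0.36). Between Fndc1 and Serpinh1 the order depended on the pseudocount: Fndc1 was above by log2 0.82 with a pseudocount of 1, and Serpinh1 was above by 0.42 with a pseudocount of 5. Between Lum and these 3 genes the groups overlapped at 16 weeks. In 15 pairs of genes no exact permutation p could be below 0.1 at 1 time, so these differences are given by size and overlap.

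Other genes of the matrix were read from lists made by role. Of 221 genes on them besides the 6, 44 had a row in the table and 28 were in the fit. At 4 weeks 2 of the 28 rose and none fell (7.14%, compared with 4.89% of all unigenes), with a median log2 fold change of 0.33. They were Lamb2, a laminin chain of basement membranes (log2 0.63, limma adjusted p = 0.03), and Adam17, a protease that sheds membrane proteins (0.88, limma adjusted p = 0.00966). At 16 weeks 16 of the 28 rose and none fell (57.1%, compared with 15.3% of all unigenes), with a median of 1.77. The fit took unigenes with a mean of at least 1 over the 12 libraries. Some genes passed only through HFD at 16 weeks, such as Col15a1 (mean 7.16 there, 0.539 in ND, and 0.245 to 0.655 at 4 weeks). The share and median at 16 weeks are therefore partly set by this limit, here and in the lists below. Without the HFD libraries numbered 1, 4 rose and 1 fell of 27 at 4 weeks, and 17 rose at 16 weeks. In that fit 7.07% of all unigenes were called higher and 6.46% lower at 4 weeks, and 15.8% higher at 16 weeks.

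**Figure D3:**
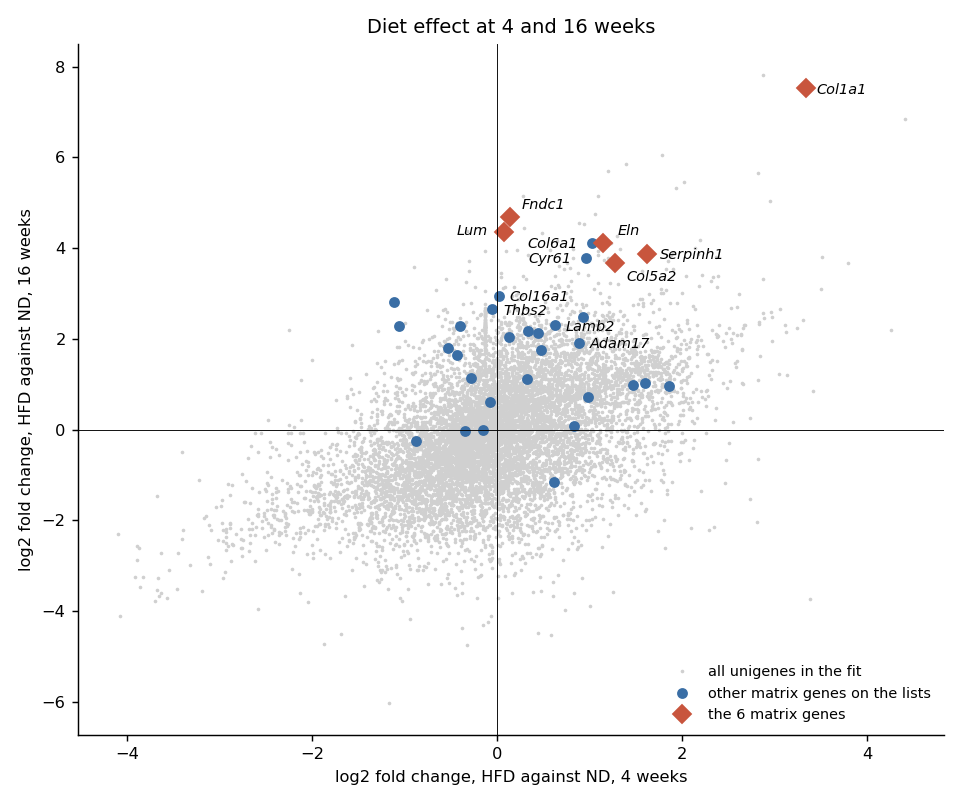
Log2 fold change of HFD against ND at 4 weeks (horizontal) and at 16 weeks (vertical); red diamonds are the 6 matrix genes, blue points the 28 other matrix genes in the fit and grey points all 9487 unigenes. Col1a1 lies far to the upper right at 3.34 and 7.52, and Lum and Fndc1 lie above the centre with 4-week values near 0.

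The fibrillar chains that pair with those of Col1a1 and Col5a2 are not analysed here. Among non-fibrillar collagens 3 of 4 in the fit rose at 16 weeks and 0 of 4 at 4 weeks by limma. The shares of all unigenes called higher were 15.3% and 4.89%. Col6a1, of the beaded filaments around cells, went from 0.648 ± 0.0389 to 33.3 ± 26.3 (log2 4.11, limma adjusted p = 2.6e-05). Col16a1 and Col15a1, which link fibrils and basement membranes to their surroundings, rose by log2 2.95 and 2.27, and Col26a1 did not pass (0.61, limma adjusted p = 0.587). Col6a1 had 3 HFD values of 4 weeks above its ND values, but its 4-week fold of log2 1.03 did not pass (limma adjusted p = 0.132).

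As above, 4.89% of all unigenes were called higher at 4 weeks and 15.3% at 16 weeks. Of 5 genes in the fit with roles in folding, modification or cross-linking, Serpinh1 included, 1 rose at 4 weeks and 2 at 16 weeks. The second was Fkbp10, a prolyl isomerase that acts on procollagen with Serpinh1 (from 0.812 ± 0.0136 to 7.15 ± 2.14, log2 2.14, limma adjusted p = 0.000104). P3h1, a prolyl 3-hydroxylase of collagen, was 8.76 ± 2.93 in ND and 8.55 ± 1.51 in HFD at 16 weeks (log2 -0.00, limma adjusted p = 0.992). P4ha2, a subunit of prolyl 4-hydroxylase, was 2.52 ± 0.490 and 2.45 ± 0.535 (log2 -0.03, limma adjusted p = 0.926), and within HFD it fell from 4 to 16 weeks by 0.70 on the log2 scale (limma adjusted p = 0.0373). Its change within ND over that time was log2 -1.02 and did not pass (limma adjusted p = 0.0553). The difference of its diet effects between the times did not pass either (log2 0.32, limma adjusted p = 0.566). PPIB, another prolyl isomerase, was detected in HFD libraries 2 and 3 of both times and in no other library.

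Among elastic fibre genes, 1 of 4 in the fit rose at 4 weeks and 2 at 16 weeks, Eln included. For all unigenes the shares were 4.89% and 15.3%. Ltbp4, which binds latent TGF-beta and takes part in elastic fibre assembly, was not detected in any ND library of 16 weeks and was 1.77, 8.26 and 6.86 in HFD (log2 2.48, limma adjusted p = 0.00324). Fbn1, the fibrillin of the microfibrils on which elastin is laid, was 5.58 ± 1.83 in ND and 4.46 ± 0.757 in HFD at 16 weeks (log2 -0.24, limma adjusted p = 0.665). Efemp1, a fibulin, did not pass at 16 weeks (log2 1.13, limma adjusted p = 0.0878). Lum was the only proteoglycan of the list in the fit.

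Of 9 adhesive and matricellular genes in the fit, Fndc1 included, 1 rose at 4 weeks and 7 at 16 weeks, and none fell at either time. For all unigenes 4.89% and 15.3% were called higher, and 7.22% and 19.9% lower. Cyr61, a matricellular protein that binds integrins, went from 5.68 ± 3.78 to 99.7 ± 77.8 at 16 weeks (log2 3.79, limma adjusted p = 0.000197). Thbs2, a thrombospondin, overlapped between the diets at 4 weeks and rose from 0.635 ± 0.0683 to 9.78 ± 4.27 at 16 weeks (log2 2.65, limma adjusted p = 6.81e-05). Lamb2 and Agrn, both of basement membranes, rose by log2 2.295 and 2.17. The row named FN1, fibronectin, was detected in the HFD libraries numbered 1 alone, at 9.01 at 4 weeks and 4.17 at 16 weeks. The rows of the hepatocyte markers AHSG and Apoa2 had the same pattern. A row at the lowest value therefore does not show that its gene was silent in that liver.

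Of 6 matrix proteases and their inhibitors 1 rose at 4 weeks and 4 at 16 weeks, where 4.89% and 15.3% of all unigenes were called higher. Mmp11, a matrix metalloproteinase of stromal cells, was 4.33, 6.41 and 9.13 in HFD at 16 weeks and not detected in ND (log2 2.81, limma adjusted p = 0.000352). At 4 weeks the order was the other way, with detection in 2 of 3 ND libraries and in 0 of 3 HFD libraries (log2 -1.12, limma adjusted p = 0.103). Timp3, an inhibitor of metalloproteinases, went from 6.64 ± 1.26 to 25.0 ± 6.71 (log2 1.75, limma adjusted p = 8.1e-05), and Adam17 and Adam9 rose by log2 1.91 and 1.11. Of 3 genes of matrix receptors and profibrotic signalling, ITGA8, an integrin chain of myofibroblasts, rose at 16 weeks (log2 2.04, limma adjusted p = 0.00209), and Lgals3 and Il13ra2 did not pass (limma adjusted p = 0.304 and 0.0519). The Lgals3 row was 1.59, 7.65 and 5.55 in ND at 16 weeks and 78.7, 215 and 0 in HFD, the last being not detected. Its lack of a call therefore does not show that Lgals3 was unchanged. Within HFD, Il13ra2, the decoy receptor for interleukin-13, fell from 4 to 16 weeks by 1.59 on the log2 scale (limma adjusted p = 0.0219).

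Markers of cell types were read from lists in the same way, and their part in these results was not tested. Some rose with the 6 genes and others did not. Of all unigenes 4.89% were called higher at 4 weeks and 15.3% at 16 weeks, and 7.22% and 19.9% lower. Without the HFD libraries numbered 1, 7.07% and 15.8% were called higher, and 6.46% and 18.1% lower. Of 19 stellate cell and myofibroblast markers 5 were in the fit, of which 2 rose at 4 weeks and 5 at 16 weeks, and 1 and 4 without the HFD libraries numbered 1. Their summed level per library was 39.2 to 47.4 in ND and 68.3 to 75.0 in HFD at 4 weeks, and 33.5 to 47.5 and 418 to 907 at 16 weeks. Most of the HFD sum of 16 weeks was Des, at 312 to 646. At 4 weeks Des and TAGLN rose (log2 2.02 and 1.22). MYL9 and Reln were lower on HFD at 4 weeks without a call (log2 -0.72 and -0.11), and Nes was not detected at that time. Of 14 markers of portal fibroblasts and mesothelium, 1 of 5 in the fit rose at 4 weeks, and 3 rose and 1 fell at 16 weeks. The 4-week rise and the 16-week fall were both Entpd2 (log2 0.79 and -0.62, limma adjusted p = 0.0178 and 0.0229). The sum of the portal fibroblast and mesothelium markers was 13.5 to 16.0 in ND and 23.7 to 26.8 in HFD at 4 weeks, and 21.3 to 24.02 and 32.8 to 124 at 16 weeks. Most of it at 4 weeks was Entpd2. Most of the highest 16-week sum was Pi16, at 80.3 in HFD library 2. Of 9 smooth muscle markers 4 were in the fit, among them Des, which was also counted with the stellate markers. Of the 4, 3 rose at 4 weeks and 4 at 16 weeks (2 and 4 without the HFD libraries numbered 1). Their sum, mostly ACTG2, was 162 to 196 and 611 to 852 at 4 weeks, and 152 to 248 and 2189 to 2542 at 16 weeks.

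Macrophage markers, 4 of 18 in the fit, rose in 4 cases at 4 weeks, and at 16 weeks 3 rose and Cd5l fell, as without the HFD libraries numbered 1. The sum over the 6 macrophage markers with a row was 11.4 to 22.8 in ND and 112 to 139 in HFD at 4 weeks. At 16 weeks it was 36.1 to 51.2 and 1497 to 1870, and most of the HFD sum was Gpnmb, at 1263 to 1522. The endothelial list had 2 of 12 markers in the fit, with 1 rise at each time that was not called without the HFD libraries numbered 1. Sums over the 3 endothelial markers with a row were 13.2 to 21.7 and 27.2 to 28.1, then 29.3 to 32.0 and 32.8 to 39.2. Hepatocyte markers, 7 of 18 in the fit, had 0 rises and 0 falls at 4 weeks by limma and 1 fall at 16 weeks. Their sum was 30557 to 36774 in ND and 11243 to 32993 in HFD at 4 weeks, and 32101 to 39857 and 7575 to 33237 at 16 weeks. AHSG and Apoa2, counted among the 7, were detected in the HFD libraries numbered 1 alone, so their lack of a call says little about hepatocytes. ALB, the defining hepatocyte marker, had the highest value of the table, 28763.5, in all 6 ND libraries and 3 of 6 HFD libraries, and 5760 to 8090 in the other 3. Most of the hepatocyte sum was ALB, whose value is fixed wherever it ranks first in a library. The sum therefore says little about hepatocyte content. Bile duct markers are not analysed here.

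The named unigenes with the most similar profile to each gene were found by the root mean square difference between log2(value + 1) profiles over the 12 libraries, each centred on its own mean, among 2970 named unigenes. The nearest to Col1a1 was Des, the filament protein desmin of contractile cells, at 0.90, and then Ckb (0.95) and the unigene named vim1 (0.98). These distances are larger than those of the neighbours of the other 5 genes. Nearest to Eln were Itgax, an integrin of macrophages and dendritic cells, at 0.19, Padi2 and Ezr (0.20 each). For Col5a2 they were CSF2RA (0.29), Flna (0.31) and Cd83 (0.32), and for Serpinh1 Ucp2 (0.25), the macrophage gene Cd68 (0.28) and B3gnt7 (0.30).

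Lum and Fndc1 had as neighbours genes with no 4-week call. Nearest to Lum was Pi16, a marker of adventitial fibroblasts, at 0.53, with 2.92, 80.3 and 8.89 in the HFD libraries of 16 weeks, highest in library 2 and lowest in library 1 as Lum was. Sbsn (0.57) and Col6a1 (0.65) followed. For Fndc1 they were Pmp22 (0.34), the lymphoid chemokine Ccl21a (0.34), which went from 4.67 ± 0.954 to 197.9 ± 25.1 at 16 weeks, and Ptx3 (0.47). Among the 6 genes themselves the closest pairs were Col5a2 with Serpinh1 (0.42) and Eln with Serpinh1 (0.43), and the farthest was Col1a1 with Lum (1.71). These distances describe 12 libraries that share 4 groups, and they give most weight to the change on HFD.

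**Figure D4:**
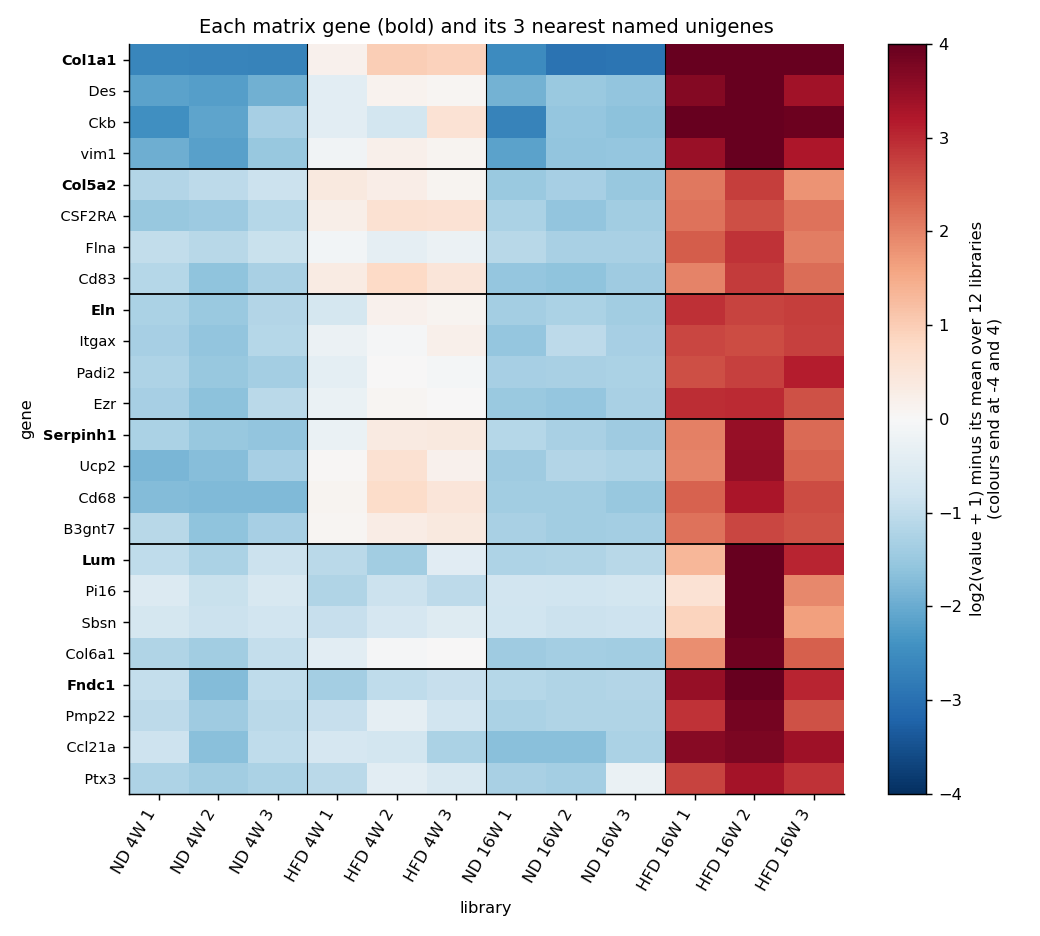
Log2(value + 1) minus its mean over the 12 libraries (colour, ending at -4 and 4) for each matrix gene in bold and, under it, its 3 nearest named unigenes; columns are libraries by group. All rows are highest in HFD at 16 weeks, and the rows of the Lum and Fndc1 blocks have no 4-week HFD rise that passed. Still, Col6a1 in the Lum block and Pmp22 in the Fndc1 block are higher in the 3 HFD columns of 4 weeks than in ND. Ptx3 in the Fndc1 block is higher there than in ND of 4 weeks.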

How the data were processed

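RNA of gerbil liver was sequenced as poly(A) RNA, and reads were assembled with Trinity 2.4.0, the longest transcript of a cluster being kept as the unigene, per the labels' protocols. The submitters' processing notes also list Salmon, without saying what for. The deposited values are a normalized expression signal made by the authors; the abundance unit under it is not stated. Sorted libraries differed by a relative gap of at most 0.01 in the top 3000 values, and 0 pairs of libraries held identical values. Such a normalization gives ranks, so folds rest on ranks, and a change in total RNA cannot show. No genome build or sequence was used, and a table of the gerbil annotation served only to check that the 6 names are gerbil gene symbols, which 6 are.

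For this report log2(value + 1) of the 12 libraries of 4 and 16 weeks was fitted with limma 3.58.1 in R 4.3.3, with 1 mean per group and a variance trend on expression. The 9487 unigenes whose mean reached 1 entered, and a Benjamini-Hochberg adjusted p below 0.05 over all of them was a call. Libraries of 8 weeks were left out. Members and lists were chosen with earlier results of these data known. All 6 genes were named in every comparison, list genes by their calls at 4 or 16 weeks with at most 5 a list, and 3 neighbours a gene by distance. Of a list name with several rows the row with the highest mean was used. The distances and the exact permutation tests were computed in Python 3.11.15 with numpy 2.4.6. The fit was tested on simulated data with known changes. Alternatives were other pseudocounts, filters and scalings, values summed by symbol, no intensity trend, a replicate block, each time alone and libraries left out. Same-numbered libraries were compared by their deviations from the group mean: r was 0.12 to 0.40 for the 3 pairs of HFD at 4 and 16 weeks and -0.04 to 0.04 for the 15 other pairs. They deviated together only within HFD. Deviations cancel out within a group, so a likeness of the libraries numbered 1 alone can raise r for the other numbers. Whether the other numbers are paired cannot be told from this.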

Additional observations from a re-analysis of the deposited data

Results flagged for a closer look

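The diet effect differed between 16 and 4 weeks for each of the 6 genes by the test of that difference in the limma fit over all unigenes. The log2 difference of the effects was 4.18 for Col1a1, 2.39 for Col5a2, 2.97 for Eln, 2.25 for Serpinh1, 4.29 for Lum and 4.55 for Fndc1. That for Lum was not called with a pseudocount of 5 (log2 2.77, limma adjusted p = 0.0612).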

How the results depend on the processing

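Of 30 results (6 genes in 5 comparisons) 24 kept their direction and their side of the threshold in each alternative that gave a value. The counts of the 6 genes called were unchanged at 4, 6, 6, 6 and 0 without each library in turn. Eln at 4 weeks was not called with that time alone (log2 1.15, limma adjusted p = 0.0864), and the difference for Lum was not called with a pseudocount of 5 (2.77). Directions reversed only where no call was made. At 4 weeks Lum was below 0 without ND replicate 2 or HFD replicate 3 (range without 1 library -0.19 to 0.28), and Fndc1 was -0.11 without ND replicate 2 (-0.11 to 0.29). Over time within ND, Eln was 0.021 after median-ratio rescaling and 0.034 without ND 4W replicate 3 (-0.12 to 0.034), and Fndc1 was -0.19 without ND 4W replicate 2 (-0.19 to 0.21). Fndc1 has no value among unigenes detected in all 12 libraries. Folds depended on the pseudocount: for Col1a1 at 16 weeks the range over alternatives was 5.83 to 8.57. The exact permutation difference of Lum was 2.78 with a pseudocount of 0.1 (p = 0.05), and without 1 library it was 1.72 to 2.68 (p = 0.025 to 0.095); that of Fndc1 was 2.29 to 2.53 (p = 0.025 to 0.06).

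Over all unigenes, the counts called were 1149, 3340, 959, 1610 and 36 (4 weeks, 16 weeks, their difference, time within HFD and time within ND). Without 1 library they were 710 to 1194, 2463 to 3409, 590 to 940, 981 to 1693 and 0 to 233. At a mean of at least 5 they were 613 at 4 weeks, 1158 at 16 weeks, 914 within HFD and 125 within ND. Among unigenes detected in all 12 libraries they were 1908 at 16 weeks and 150 within ND. Without the HFD libraries numbered 1 they were 455 for the difference, 931 within HFD and 12 within ND. The count within ND was 56 and 149 with pseudocounts of 0.1 and 5, 14 with no filter, 22 with no intensity trend and 19 with the replicate block, which changed no call of the 6 genes. The larger number of falls at 4 weeks (464 higher, 685 lower) turned after rescaling by median ratios (600 and 504), and with both HFD libraries numbered 1 left out (655 and 598). At 16 weeks (1451 and 1889) it turned after that rescaling (1761 and 1737) and with no filter (2054 and 2014). The causes were not tested. Depth is unknown, so no counting error can be given.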

Other observations

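Some matrix genes lay under the limit for the fit. Of 44 matrix genes with a row besides the 6, Col23a1, a membrane-bound collagen, and Lama5, a laminin chain of basement membranes, were detected in the 3 HFD libraries of 16 weeks and in none of the other 9. This was 4.55% of these genes, and 1.09% of all unigenes in the table had that pattern (143 in number). Col23a1 was 0.858, 1.91 and 0.609 in those 3 libraries, and Lama5 was 1.54, 5.77 and 0.202. Both were highest in library 2, as Col1a1, Serpinh1, Lum, Col5a2 and Fndc1 were. These genes were chosen after their values were seen.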
